A study of Mus musculus with 9 samples.

Results

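Adenylyl cyclases, the subunits and inhibitors of protein kinase A (PKA) and the A-kinase anchoring proteins (AKAPs) were followed in primary mouse osteoblasts exposed to parathyroid hormone (PTH) peptides. Genes were taken by symbol, from array features (transcript clusters) annotated to a single gene, and each gene was read from its brightest cluster over all arrays. This gave 33 genes of the 22180 on such clusters. They comprised 8 membrane adenylyl cyclases (Adcy1, Adcy2, Adcy4, Adcy5, Adcy6, Adcy7, Adcy8 and Adcy9), the soluble cyclase Adcy10, 2 PKA catalytic subunits (Prkaca and Prkacb) and 4 regulatory subunits (Prkar1a, Prkar1b, Prkar2a and Prkar2b). The inhibitors Pkia and Pkib and 16 AKAPs (Akap1 to Akap7, Akap8, Akap8l, Akap9 to Akap14 and Akap17b) completed them. Adcy3 and Pkig were read only by clusters that name a second gene and were not counted.

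The cells were osteoblasts released by enzyme digestion from calvaria of C57BL/6J mice aged 7 to 10 days and differentiated at passage 2, from day 3 of culture, with ascorbic acid and beta-glycerophosphate. On day 10 the cells of all groups went into serum-free medium with albumin for 24 h, and peptide or vehicle followed for 4 h in that medium. The first group received human PTH(1-34), written hPTH(1-34), at 100 nM. The second received a bovine PTH(7-34) amide analogue carrying D-Trp12 and Tyr34, written bPTH(7-34), at 1 µM, and the last received vehicle. Each group had 3 arrays of the Affymetrix Mouse Gene 2.0 ST type, hybridised with 100 ng of RNA. The osteoblasts of each replicate were a separate preparation according to the series text, and the peptides differed in dose as well as in sequence.

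The PTH receptor couples to the stimulatory G protein, which switches on membrane adenylyl cyclases to make cyclic AMP (cAMP). In resting cells PKA is a complex of regulatory and catalytic subunits, and cAMP binding to the regulatory subunits frees the catalytic ones to phosphorylate their targets, among them the transcription factor CREB. AKAPs bind the regulatory subunits and hold PKA at chosen places in the cell, PKI proteins block free catalytic subunits, and the cAMP-PKA route carries most of the acute gene response of osteoblasts to PTH. PTH(1-34) is an activating fragment of the hormone, and PTH(7-34) fragments bind the receptor without the activating first residues.

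Values were the deposited log2 levels after robust multi-array averaging (RMA). A level under 1.69, the 95th percentile of 1105 olfactory receptor genes with vehicle, is called below the background limit here. The responding genes Nr4a2 (1.81 ± 0.21), Rgs2 (1.36 ± 0.21) and Crem (0.67 ± 0.11) were higher with hPTH(1-34) than with vehicle (log2 change ± SE, limma, adjusted p = 0.0149, 0.0377 and 0.0442). These 3 were chosen with earlier results of these data known, so their passing is not an independent check that the hormone acted. Among osteoblast markers Col1a1 averaged 12.29, 12.27 and 12.29 with hPTH(1-34), bPTH(7-34) and vehicle, and the receptor gene Pth1r averaged 4.36, 4.94 and 4.70. Alpl, the tissue alkaline phosphatase, averaged 6.48, 5.48 and 5.50 in the same groups, with all hPTH(1-34) arrays above all others and an adjusted p of 0.0601 against vehicle (limma). Its part in the changes of the 33 genes was not tested. Sp7 was below the limit with hPTH(1-34) and vehicle, and the late markers Bglap and Dmp1 were below it in every group. Ibsp, of the same list, was above the limit in every group, with means of 3.83, 3.41 and 3.84 with hPTH(1-34), bPTH(7-34) and vehicle. Its single arrays ran from 2.29 to 5.09, with array 1 the lowest of each group (2.54, 2.29 and 3.10). Spp1 was not measured. These were bulk RNA levels, so fewer cells of a type and less RNA per cell cannot be told apart.

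After 4 h of hPTH(1-34) a single one of the 33 genes was called higher in RNA than with vehicle, the anchoring protein gene Akap2 (1.68-fold). None was called lower. The Akap2 call was marginal (limma adjusted p = 0.0494) and was lost when any 1 of the 6 arrays compared was left out. The other 32 did not pass the test (limma over all 9 arrays, Benjamini-Hochberg adjusted p under 0.05). Of all 23521 clusters tested 0.451% passed in this comparison, 0.31% higher and 0.14% lower. That background share depended on single arrays. Leaving out vehicle array 2 or 3 took it to 0 clusters (limma; before adjustment 1798 and 1927 were under 0.05). Leaving out hPTH(1-34) array 1, 2 or 3 gave 259, 3 and 2. The median log2 change of the 33 genes was -0.0033, against 0.0033 over all 22180 genes. With bPTH(7-34) none of the 33 passed, against 0% of all clusters, and their median log2 change from vehicle was 0.0333, against 0.0033 over all genes. The 95% confidence intervals of the change with hPTH(1-34) stayed within 1 log2 unit on either side of 0 for 30 genes and within 0.5 for 19.

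**Figure D1:**
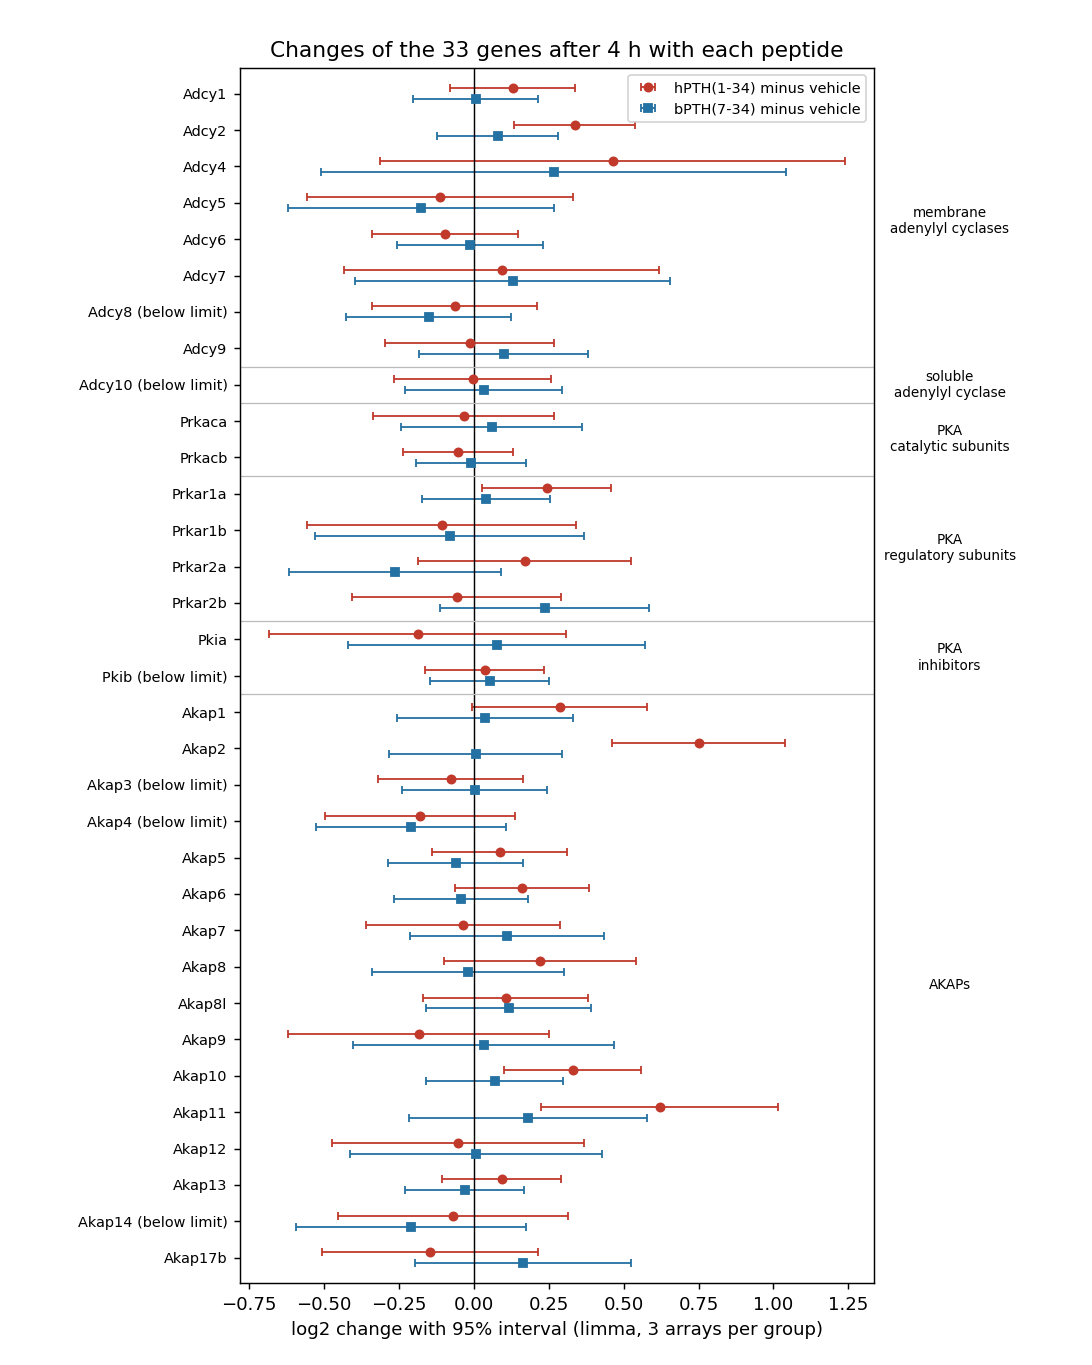
Log2 change from vehicle with hPTH(1-34) (circles) and with bPTH(7-34) (squares) for the 33 genes, with 95% confidence intervals from limma and 3 arrays per group. Akap2 with hPTH(1-34), at 0.75, is the farthest right, and genes below the background limit in all groups are marked.

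At the top of the pathway, none of the 8 membrane cyclases passed the test for either peptide. Adcy6, a cyclase inhibited by calcium, was the brightest of them, with log2 levels of 5.37, 5.46 and 5.46 with hPTH(1-34), 5.46, 5.38 and 5.70 with bPTH(7-34), and 5.46, 5.46 and 5.66 with vehicle. The 3 groups overlapped, and the change with hPTH(1-34) was -0.10, with a 95% interval from -0.34 to 0.15. Adcy2, a cyclase stimulated by the beta-gamma subunits of G proteins, read 5.03, 4.99 and 5.14 with hPTH(1-34), 4.81, 4.75 and 4.83 with bPTH(7-34), and 4.78, 4.77 and 4.60 with vehicle. All its hPTH(1-34) arrays lay above all arrays of the other groups, a change of 0.34 ± 0.09 from vehicle (SE) that did not pass after adjustment (limma adjusted p = 0.217; the unadjusted p was under 0.05).

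The other membrane cyclases lay lower and gave no separation between groups. Adcy4, of the same subfamily as Adcy2, had the widest interval of the 33 genes: its mean was 3.33 with hPTH(1-34), 3.13 with bPTH(7-34) and 2.87 with vehicle, where single arrays read 3.69, 2.85 and 2.06. Its change with hPTH(1-34) was 0.46, with an interval from -0.31 to 1.24, so a change of more than 1 log2 unit upwards was not resolved. Adcy7, the remaining member of that subfamily, averaged 2.65, 2.68 and 2.55 with hPTH(1-34), bPTH(7-34) and vehicle, and Adcy9, which responds poorly to forskolin, averaged 3.52, 3.63 and 3.53. Adcy5, the close relative of Adcy6, averaged 1.88, 1.82 and 2.00. The calcium-stimulated cyclases Adcy1 and Adcy8 were at the edge of detection. Adcy8 was below the background limit in all groups, and Adcy1 averaged 1.73 with hPTH(1-34), 1.61 with bPTH(7-34) and 1.60 with vehicle. The bicarbonate-sensitive soluble cyclase Adcy10 was below the limit throughout, at 1.13, 0.77 and 1.15 with hPTH(1-34), 0.98, 1.14 and 1.04 with bPTH(7-34), and 0.96, 1.07 and 1.03 with vehicle.

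Both catalytic subunits were well above background, and neither passed the test for either peptide. Prkaca, the alpha subunit, had levels of 7.18, 7.31 and 7.39 with hPTH(1-34), 7.33, 7.21 and 7.62 with bPTH(7-34), and 7.53, 7.23 and 7.22 with vehicle. Prkacb, the beta subunit, had 6.32, 6.42 and 6.26 with hPTH(1-34), 6.36, 6.36 and 6.41 with bPTH(7-34), and 6.36, 6.37 and 6.43 with vehicle. The groups overlapped for both genes. The 95% interval of the hPTH(1-34) change ran from -0.34 to 0.27 for Prkaca and from -0.24 to 0.13 for Prkacb. A second, dimmer Prkaca cluster had a change of -0.00 ± 0.24 (SE).

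**Figure D2:**
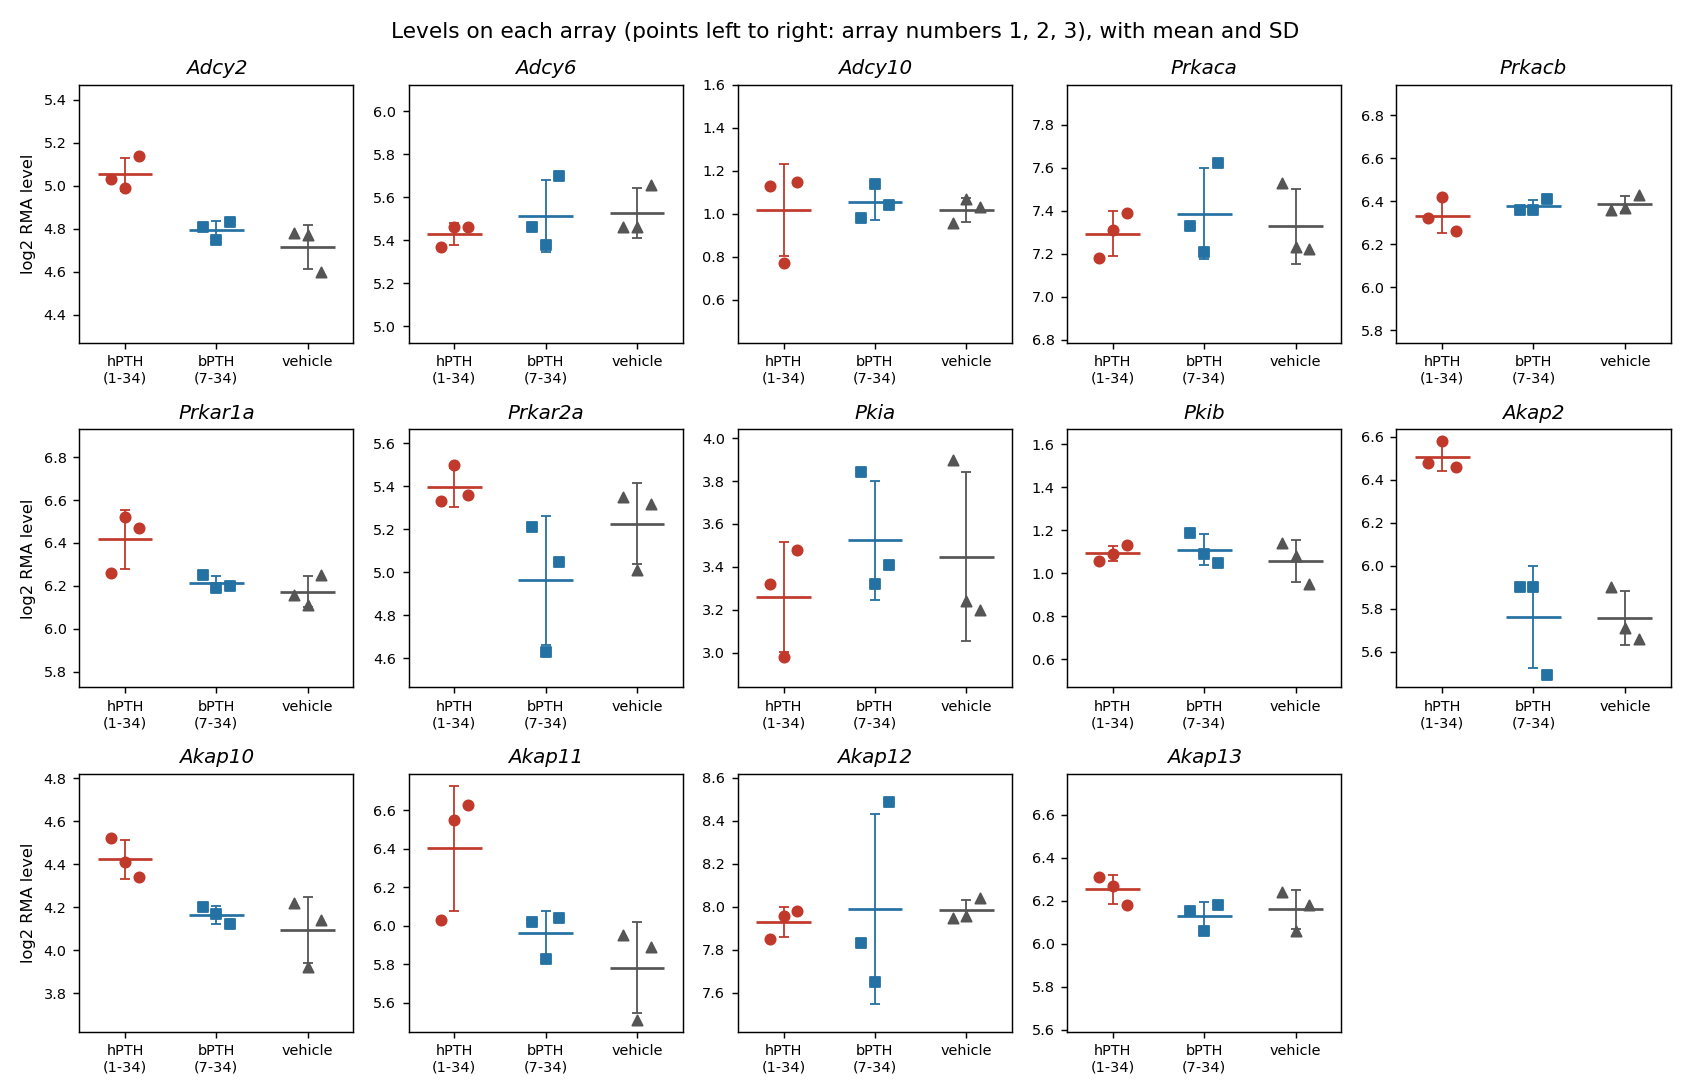
Log2 RMA level on each array for 14 genes, with hPTH(1-34) left, bPTH(7-34) in the middle and vehicle right; points are single arrays, the line is the mean and the bar the SD of 3 arrays. The Akap2 arrays with hPTH(1-34) lie between 6.46 and 6.58, above all 6 other arrays, while the Prkaca and Prkacb groups overlap.

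Prkar1a, which encodes the type I-alpha regulatory subunit that holds the catalytic subunits inactive, read 6.26, 6.52 and 6.47 with hPTH(1-34), 6.25, 6.19 and 6.20 with bPTH(7-34), and 6.16, 6.11 and 6.25 with vehicle. Every hPTH(1-34) array lay above every other array, the nearest by 0.01 log2 units. The change from vehicle was 0.24 ± 0.09 (SE), with an interval from 0.03 to 0.46, and did not pass after adjustment (limma adjusted p = 0.456; the unadjusted p was under 0.05). Prkar2a, the type II-alpha subunit, read 5.33, 5.50 and 5.36 with hPTH(1-34), 5.21, 4.63 and 5.05 with bPTH(7-34), and 5.35, 5.01 and 5.32 with vehicle. Its hPTH(1-34) arrays overlapped those with vehicle and lay above all those with bPTH(7-34). The peptides differed by 0.43 ± 0.16 (limma adjusted p = 0.407), bPTH(7-34) array 2 being the lowest of the 9. The type I-beta subunit Prkar1b averaged 4.64, 4.67 and 4.75 with hPTH(1-34), bPTH(7-34) and vehicle, and the type II-beta subunit Prkar2b averaged 4.79, 5.08 and 4.84.

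CREB binds the cAMP response element, whose full palindrome is TGACGTCA and whose core is TGACG, or CGTCA on the other strand. Of the 29 genes with a promoter window, Prkar1a alone held the full palindrome in one. Windows run from 250 bases before to 50 after a RefSeq start in GRCm38.p6, and Adcy6, Adcy8, Pkia and Akap12 had none to search. The stretch around it is given from chr11:109650889-109650918 on the plus strand, with the palindrome in capitals. The palindrome lies in 2 of the 6 windows of the gene, which overlap each other there.

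Prkar1a: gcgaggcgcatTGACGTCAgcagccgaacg

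The palindrome begins at base -49 from 1 annotated start and at base 39 from another, and the array does not show which start the cells used. A match to these letters is a description of the sequence, not of a bound site.

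The PKA inhibitors likewise did not pass for either peptide. Pkia read 3.32, 2.98 and 3.48 with hPTH(1-34), 3.84, 3.32 and 3.41 with bPTH(7-34), and 3.90, 3.24 and 3.20 with vehicle. These groups overlapped, and the interval of the hPTH(1-34) change ran from -0.68 to 0.31. Pkib was below the background limit on every array, with 1.06, 1.09 and 1.13 with hPTH(1-34), 1.19, 1.09 and 1.05 with bPTH(7-34), and 1.14, 1.08 and 0.95 with vehicle.

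Akap2 encodes an anchoring protein that binds PKA regulatory subunits and is associated with the actin cytoskeleton. RefSeq lists Akap2 as a synonym of Pakap (chr4:57434475-57896984, GRCm38.p6). Its log2 levels were 6.48, 6.58 and 6.46 with hPTH(1-34), 5.90, 5.90 and 5.49 with bPTH(7-34), and 5.90, 5.71 and 5.66 with vehicle. The lowest hPTH(1-34) array stood above the highest of the other 6, and the bPTH(7-34) and vehicle arrays overlapped. The means were 6.51 ± 0.06, 5.76 ± 0.24 and 5.76 ± 0.13 with hPTH(1-34), bPTH(7-34) and vehicle (SD, n = 3 each). Akap2 rose with hPTH(1-34) by 0.75 ± 0.13 on the log2 scale (SE; 95% interval 0.46 to 1.04; limma adjusted p = 0.0494).

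The call for Akap2 was marginal: it ranked 106 of the 106 clusters called, and the adjusted p lay between 0.0157 and 0.22 over 17 other settings, with 8 of them past the threshold. Leaving out any 1 of the 6 arrays compared ended the call, with adjusted p of 0.0626, 0.22 and 0.185 without hPTH(1-34) array 1, 2 or 3, and 0.0731, 0.216 and 0.218 without vehicle array 1, 2 or 3. The log2 change itself stayed between 0.70 and 0.82 in all 17 settings.

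**Figure D3:**
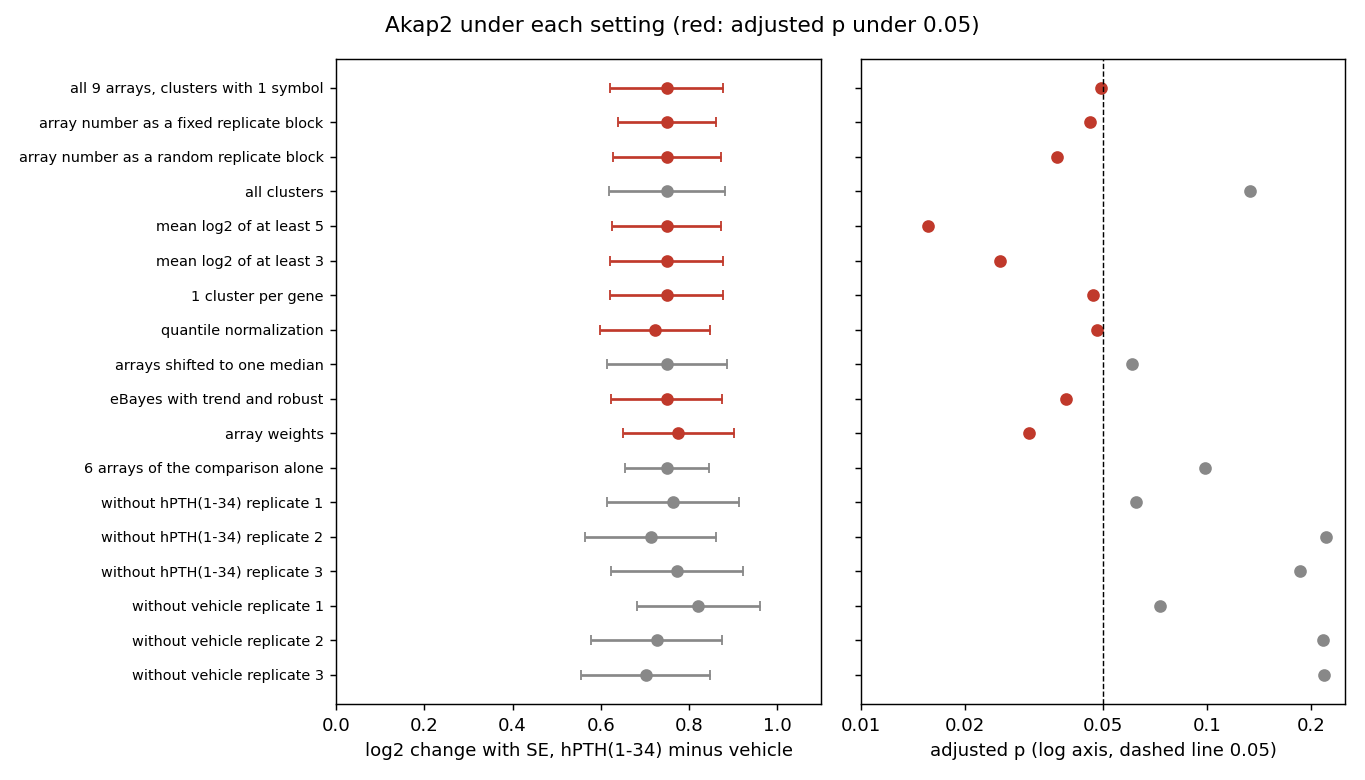
Left, log2 change of Akap2, hPTH(1-34) minus vehicle, with its SE under the reported setting (top) and 17 others; right, the adjusted p on a log axis with a dashed line at 0.05. The change stays between 0.70 and 0.82, while the adjusted p falls on both sides of the line.

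Markers of other cell types were summed on the linear scale for each array. The neuron and glia markers summed to 20.4 to 34.5 with hPTH(1-34), 17.3 to 32.1 with bPTH(7-34) and 15.7 to 19 with vehicle, over 4 of 5 markers measured, with Snap25 below the background limit in every group and Syt1 and Gfap below it with vehicle. The adipocyte markers, 5 of 5 measured, summed to 413.6 to 727.5 with hPTH(1-34), 356.3 to 521.1 with bPTH(7-34) and 337.4 to 433.1 with vehicle. These adipocyte sums overlapped between hPTH(1-34) and vehicle. The part of either list in the Akap2 change was not tested. The sums of the macrophage and osteoclast, muscle, chondrocyte and endothelial lists overlapped between hPTH(1-34) and vehicle. In the macrophage and osteoclast list Ctsk was the brightest gene and stayed between 7.76 and 8.1 on all arrays. The macrophage marker Adgre1 ran from 3.78 to 6.37 with hPTH(1-34), 3.81 to 5.91 with bPTH(7-34) and 4.82 to 6.29 with vehicle. The overlap of that sum therefore does not show an even macrophage content across arrays. The part of macrophage content in the Akap2 change was not tested.

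A further cluster is annotated to both Akap2 and its neighbour Palm2, which RefSeq joins with it in 1 gene. It read 4.03, 4.16 and 4.39 with hPTH(1-34), 4.09, 4.09 and 4.12 with bPTH(7-34), and 3.89, 3.70 and 3.99 with vehicle. All arrays of both peptides were above all vehicle arrays. In a fit over every cluster the change was 0.33 ± 0.12 with hPTH(1-34) and 0.24 ± 0.12 with bPTH(7-34) (SE), and neither passed (limma adjusted p = 0.565 and 1.00).

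Akap11 encodes an anchoring protein that also binds the kinase GSK3-beta and protein phosphatase 1. It had the next largest change among the 33, with 6.03, 6.55 and 6.63 with hPTH(1-34), 6.02, 5.83 and 6.04 with bPTH(7-34), and 5.95, 5.51 and 5.89 with vehicle. All hPTH(1-34) arrays lay above the vehicle arrays, array 1 by 0.08, and array 1 fell among the bPTH(7-34) arrays. The change from vehicle was 0.62 ± 0.18 (SE) and did not pass (limma adjusted p = 0.258). Without hPTH(1-34) array 1 it was 0.81, with an adjusted p of 0.0501, and over the 17 settings the adjusted p lay between 0.0501 and 0.601.

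Akap10, which binds both type I and type II regulatory subunits, read 4.52, 4.41 and 4.34 with hPTH(1-34), 4.20, 4.17 and 4.12 with bPTH(7-34), and 4.22, 3.92 and 4.14 with vehicle. The hPTH(1-34) arrays were above all others, and the change from vehicle, 0.33 ± 0.10 (SE), did not pass (limma adjusted p = 0.312). The brightest anchoring protein, Akap12 (gravin), a large membrane scaffold, read 7.85, 7.96 and 7.98 with hPTH(1-34), 7.83, 7.65 and 8.49 with bPTH(7-34), and 7.95, 7.96 and 8.04 with vehicle. Its groups overlapped, and the interval of the hPTH(1-34) change ran from -0.47 to 0.37. Akap13, which is also an activator of the GTPase RhoA, read 6.31, 6.27 and 6.18 with hPTH(1-34), 6.15, 6.06 and 6.18 with bPTH(7-34), and 6.24, 6.06 and 6.18 with vehicle. These groups overlapped too, with an interval of the hPTH(1-34) change from -0.11 to 0.29.

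The remaining AKAPs showed no change past the test. Akap1, which anchors PKA to the outer mitochondrial membrane, averaged 5.38 ± 0.19 with hPTH(1-34), 5.13 ± 0.19 with bPTH(7-34) and 5.09 ± 0.08 with vehicle (SD, n = 3 each), and its change of 0.29 ± 0.13 with hPTH(1-34) had the lowest p of the 19 genes not given array by array (limma adjusted p = 0.547). Akap6, best known from the nuclear envelope of muscle cells, averaged 2.07, 1.86 and 1.91 with hPTH(1-34), bPTH(7-34) and vehicle, and all its hPTH(1-34) arrays were above the vehicle arrays. Akap9, the scaffold of centrosome and Golgi, averaged 4.99, 5.20 and 5.17. The nuclear proteins Akap8 and Akap8l averaged 5.56, 5.32 and 5.34, and 4.17, 4.18 and 4.06, in the same order. Akap5 and Akap7, anchors at the plasma membrane, averaged 2.98, 2.83 and 2.89, and 3.99, 4.14 and 4.03. Akap3 and Akap4 of the sperm tail and Akap14 were below the background limit in all groups. Akap17b averaged 2.10, 2.41 and 2.25 and was the single gene of the 33 whose hPTH(1-34) arrays all lay below the vehicle arrays.

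Counted without adjustment, 5 of the 33 genes had a limma p under 0.05 for hPTH(1-34) against vehicle, all of them higher: Akap2, Adcy2, Akap11, Akap10 and Prkar1a. This is 15.15% of the genes, where 9.31% of all clusters passed that rule, 5.53% higher and 3.78% lower. The same 5 and Akap6 had all hPTH(1-34) arrays above all vehicle arrays (18.18%, against 6.08% of all clusters), and Akap17b had all below (3.03%, against 4.58%). The share over all clusters includes many dim ones: 8036 of the 22180 genes were below the background limit in every group, against 6 of the 33. With a mean log2 level of at least 3, 1430 of 9562 clusters and 5 of 21 genes had an unadjusted p under 0.05 (limma). With at least 5, 948 of 5144 clusters and 4 of 12 genes did. Array separation was not counted at these levels. These counts describe genes chosen by their names, and 4 of the 5 do not pass the adjusted test.

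In bPTH(7-34) against vehicle none of the 33 genes had an unadjusted p under 0.05, where 3.32% of all clusters did, 1.86% higher and 1.45% lower. None had all bPTH(7-34) arrays above or all below the vehicle arrays, where 2.9% and 2.39% of all clusters did. Their log2 changes ran from -0.26 (Prkar2a) to 0.27 (Adcy4), and every adjusted p was 0.999. For Akap2 the change was 0.01, with an interval from -0.28 to 0.30. The interval of the change stayed within 1 log2 unit of 0 for 32 genes and within 0.5 for 22, and changes inside these intervals were not resolved.

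Set directly against each other, hPTH(1-34) and bPTH(7-34) differed in none of the 33 genes after adjustment in the fit without a replicate block. Of all clusters 0.463% passed (109 in all, 2 to 262 when 1 array was left out). This comparison shares its hPTH(1-34) arrays with the one against vehicle, and both comparisons against vehicle share the vehicle arrays. Akap2 was 0.74 ± 0.13 higher with hPTH(1-34) than with bPTH(7-34) (SE, limma adjusted p = 0.0508), just outside the threshold. It passed in 8 of 17 other settings, with adjusted p from 0.0150 to 0.193. Both fits with the array number as a replicate block were among those 8 (limma adjusted p = 0.0459 fixed and 0.0368 random). Unadjusted, Akap2, Adcy2, Prkar2a, Akap10 and Akap11 were higher and none was lower. These 5 are 15.15% of the genes, against 9.52% of all clusters in either direction, 5.3% higher and 4.22% lower. With a mean log2 level of at least 3, 1478 of 9562 clusters and 5 of 21 genes had an unadjusted p under 0.05 (limma). All hPTH(1-34) arrays lay above all bPTH(7-34) arrays for 5 genes, Adcy2, Prkar1a, Prkar2a, Akap2 and Akap10 (15.15%, against 5.99% of all clusters), and below them for Akap17b (3.03%, against 5.1%). In the moderated F-test of any difference among the 3 groups, no gene of the 33 passed and 0.383% of all clusters did, with Akap2 at an adjusted p of 0.0609. The unadjusted p of that test was under 0.05 for 4 genes, Akap2, Adcy2, Akap11 and Akap10, against 8.18% of all clusters.

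Core letters of the cAMP response element stood in windows of 10 of the 29 genes that have a RefSeq promoter window. The share of all genes with a core was not counted. By window the core was in 13 of 54 (24.1%), against 20.8% of all 32851 windows, with cores inside the palindrome included. The full palindrome was in 2 windows (3.70%), against 1.79%. Both are windows of Prkar1a that overlap and hold the same single site. Their core outside the palindrome is also the same site, so the 13 windows with a core are not 13 separate stretches. The sequences of the 2 AKAPs with the largest log2 changes are given with their cores in capitals. Akap2 has a core in 2 of its 5 windows, at chr4:57568003-57568032 and chr4:57854328-57854357 on the plus strand. The stretch of Akap11 comes from 1 of its 2 windows, at chr14:78536981-78537110 on the minus strand, and holds 3 cores, of which the last 2 are 2 bases apart.

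Akap2 start 3: gaggcgcggagaCGTCAgggcggggaccta

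Akap2 start 5: tgcaggaggagcTGACGgttctacatcttc

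Akap11 start 2: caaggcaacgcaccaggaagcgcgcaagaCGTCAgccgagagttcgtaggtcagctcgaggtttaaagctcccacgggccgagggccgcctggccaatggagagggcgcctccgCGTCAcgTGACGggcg

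The Akap2 cores begin at bases -233 and -222 from their starts, and those of Akap11 at bases -221, -136 and -129. The starts of Akap2 are those of the joined gene Pakap, and which of its transcripts the Akap2 cluster reads, and which start the cells used, was not resolved. The windows of Adcy2 and Akap10, which had unadjusted p under 0.05, held neither pattern in these letters. Prkaca, Prkacb, Prkar1b, Prkar2a, Adcy7, Adcy9 and Akap8l had cores, and none of them passed the adjusted test, nor did Adcy2 or Akap10. Unadjusted, Prkar2a was under 0.05 between the peptides (limma).

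**Figure D4:**
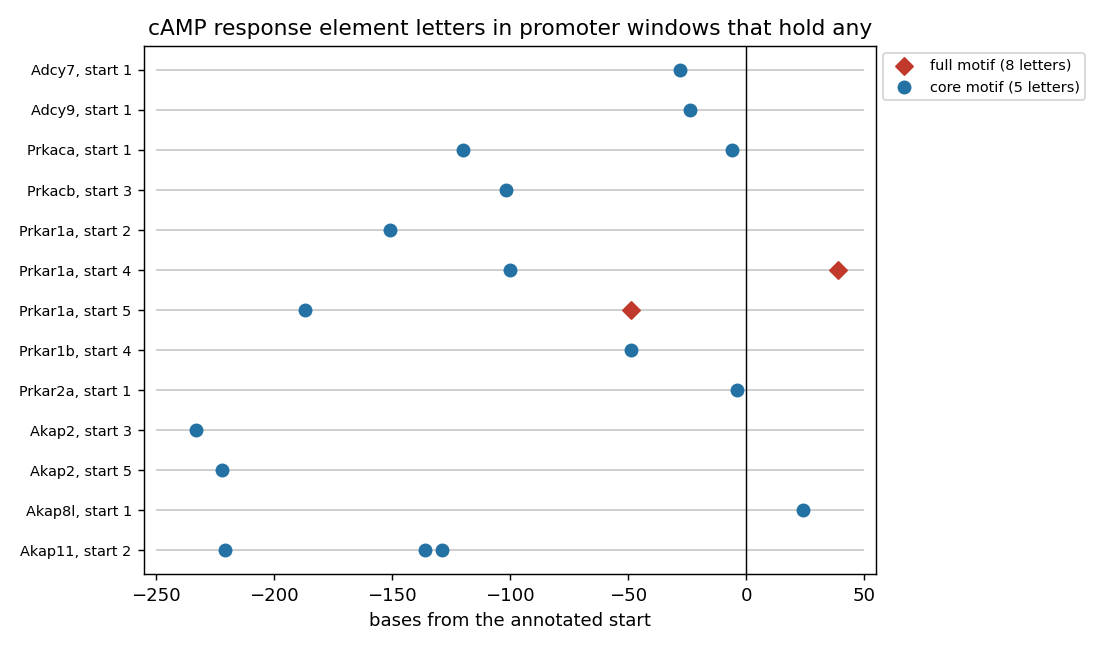
Position of the full motif (diamonds) and of core motifs outside it (circles) in the 13 promoter windows that hold any, in bases from each annotated start (vertical line). Prkar1a alone carries the full motif, and Akap11 carries 3 cores upstream of start 2.

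Other genes of the pathway were counted in the same fit. Of 14 further cAMP effectors and regulators 12 were measured, and none passed in any comparison (limma). Of all clusters 0.451% passed for hPTH(1-34) against vehicle, 0% for bPTH(7-34) against vehicle and 0.463% between the peptides. Unadjusted, only Bves was under 0.05, lower with hPTH(1-34) than with bPTH(7-34). That is 8.33% of the 12, where 4.22% of all clusters were lower. The median log2 change of the 12 with hPTH(1-34) was -0.04. The lowest p among them belonged to Bves, a cAMP-binding membrane protein of the Popeye family, with 1.71, 2.07 and 1.65 with hPTH(1-34), 2.22, 2.30 and 2.04 with bPTH(7-34), and 1.93, 2.02 and 2.33 with vehicle. Its hPTH(1-34) arrays overlapped those with vehicle (change -0.28 ± 0.15, SE; limma adjusted p = 0.615). Gnai3, an inhibitory G protein alpha subunit that restrains cyclases, was next, with a change of 0.16 ± 0.14 (adjusted p = 0.769).

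Of 15 anchoring proteins without an Akap symbol, all measured, 1 rose with hPTH(1-34) and none fell, with a median log2 change of 0.03 (0.0033 over all genes). That is 6.67% of the list, where 0.31% of all clusters were higher and 0.14% lower. The share rests on 1 gene, and the list was chosen with earlier results of these data known. All clusters include many dim ones: with a mean log2 level of at least 5, 182 of 5144 clusters passed in either direction (limma, adjusted). The shares therefore do not show that the list responded more than other genes. That gene was Ezr, encoding ezrin, which links the plasma membrane to actin and binds PKA. Its levels were 5.57, 5.70 and 5.54 with hPTH(1-34), 4.91, 4.93 and 5.02 with bPTH(7-34), and 4.98, 4.81 and 4.59 with vehicle. All hPTH(1-34) arrays were above all others, and bPTH(7-34) overlapped vehicle. Ezr was 1.75-fold higher with hPTH(1-34) than with vehicle (log2 change 0.81 ± 0.11, SE; limma adjusted p = 0.0250) and 0.65 log2 units higher than with bPTH(7-34) (adjusted p = 0.0499). The call against vehicle was lost without hPTH(1-34) array 2 or 3 (limma adjusted p = 0.140 and 0.129) or vehicle array 2 or 3 (adjusted p = 0.134 and 0.123). The call against bPTH(7-34) was lost without any 1 of its 6 arrays (adjusted p 0.0644 to 0.193) and with the fixed replicate block.

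Rab32, a small GTPase that anchors PKA at mitochondria, lay the other way, with 7.14, 6.57 and 5.82 with hPTH(1-34), 7.55, 7.79 and 7.30 with bPTH(7-34), and 7.52, 7.44 and 7.56 with vehicle. All its hPTH(1-34) arrays were below all others, as 4.58% of all clusters were below vehicle and 5.1% below bPTH(7-34), and they spread over more than 1 log2 unit. The difference from vehicle, -0.997 ± 0.28 (SE), did not pass after adjustment (limma adjusted p = 0.249). Over the same hPTH(1-34) arrays the macrophage markers Adgre1 (6.37, 4.83 and 3.78) and Cd68 (5.66, 4.49 and 3.52) also fell, while Ctsk and Acp5 did not. With vehicle Adgre1 read 6.29, 4.82 and 5.39, where Rab32 stayed between 7.44 and 7.56. The part of macrophage content in the Rab32 difference was not tested.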

How the data were processed

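The values were the series' deposited log2 expression levels, made by the submitters with Affymetrix Expression Console and RMA per the submitters' processing notes (versions are not given in the sources used here) and deposited with 2 decimals. Of 41345 clusters, 23521 have 1 gene symbol in the platform annotation, 1814 several and 16010 none. limma 3.58.1 in R 4.3.3 (lmFit, eBayes) was fitted to the 9 arrays together, with a mean per group and no further term. The fit had 6 residual and 3.20 prior degrees of freedom. Tests were two-sided, with Benjamini-Hochberg adjustment over the 23521 clusters and a threshold of 0.05. The method was tested on simulated data. Clusters with several symbols were read from a second such fit to all 41345 clusters, with adjustment over those. Precision is limited by 3 arrays per group. Levels of different genes depend on their probes, so tests compare groups within a gene. Array values are given for genes past the adjusted or unadjusted threshold in any test and the 2 brightest of each role group. Of the other pathway lists, genes past the adjusted threshold and the 2 with the lowest p against vehicle are named. The members and lists were chosen with earlier results of these data known, and the background limit was set after the values were seen. RefSeq (GRCm38.p6) matched 32 genes by gene ID and 1 by synonym, and its promoter windows covered 29. Figures were drawn with matplotlib 3.10.9. The array number as a block, other cluster sets, filters, scalings and variance models, and leaving out each array, were tried as alternatives.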

Additional observations from a re-analysis of the deposited data

How the results depend on the processing

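Over the alternatives run, no log2 change of Ezr or of the 14 genes of the 33 given array by array reversed past its threshold; 714 of these values kept their side of it, and those that did not belonged to Akap2 and Ezr. Rab32, Bves, Gnai3 and the clusters with several symbols were not refitted. For hPTH(1-34) against vehicle, 106 clusters became 16 over all clusters, 182 and 186 with a mean log2 level of at least 5 and 3, 166 with array weights, 0 with the 6 arrays alone (1936 unadjusted), and 0 to 259 without 1 array. Of the 33 genes, the count of 1 became 0 over all clusters, with arrays shifted to one median, with the 6 arrays alone and without any 1 array (0 to 0). For hPTH(1-34) against bPTH(7-34), 109 clusters became 3 over all clusters, 211 and 215 with the level filters, 204 with array weights, 0 with the 6 arrays alone (2066 unadjusted) and 2 to 262 without 1 array; of the 33 genes, 0 became 1, Akap2, with either replicate block, both filters, 1 cluster per gene, quantile normalization, trended robust variances and array weights, and stayed 0 to 0 without 1 array. For any difference, 90 became 59 with the fixed replicate block, 2 over all clusters, 170 and 154 with the filters, 157 with weights and 2 to 198 without 1 array; of the 33 genes, 0 became 1 with the random replicate block, both filters, trended robust variances and weights. The cause of these shifts was not tested. For bPTH(7-34) against vehicle the count was 0 in every alternative run (limma; 780 unadjusted in the reported fit). The filters leave 12 and 21 of the 33 genes. Same-numbered arrays had correlations of their deviations from 0.0646 to 0.364, with 6 of 9 pairs over 0.1. Other pairs of arrays from different groups ran from -0.294 to 0.138, with 1 of 18 over 0.1. The reported fit did not pair the samples by number, so any difference between preparations that a number shares stays in its spread. The series text gives each replicate its own preparation and does not say whether the 3 groups of a number share it. With the replicate block, Akap2 had an adjusted p of 0.046 (fixed) and 0.0368 (random) against vehicle, and of 0.0459 and 0.0368 against bPTH(7-34), where the fit without a block gave 0.0508; 8 of 9 arrays correlated best with their own number, a hint from the data and not from the design. The settings for Ezr were chosen after seeing the data: it passed in 11 of 17 against vehicle and 7 of 17 against bPTH(7-34), where the fixed replicate block gave an adjusted p of 0.0741.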

Other observations

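Adcy3, a membrane cyclase, is read with Cenpo by 1 cluster, with 6.33, 6.29 and 6.52 with hPTH(1-34), 6.22, 6.16 and 6.35 with bPTH(7-34), and 6.20, 6.33 and 6.28 with vehicle. The hPTH(1-34) change was 0.11 ± 0.10 (SE; limma over all clusters, adjusted p = 0.841). The inhibitor Pkig, read with Gm6334, had 2.18, 2.46 and 2.29 with hPTH(1-34), 2.15, 2.11 and 2.18 with bPTH(7-34), and 2.13, 2.19 and 2.18 with vehicle, a change of 0.14 ± 0.09 with hPTH(1-34) (adjusted p = 0.779). Both sets of groups overlapped.

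Some genes had the same value to 2 decimals on many arrays. Akap4 read 1.22 on 7 of 9 arrays, Adcy9 read 3.52 on 6, and Adcy6 and Akap8 had 1 value on 5. In all 4 of the 33 genes (12.1%) shared a value on at least 5 arrays, as did 9.98% of all tested clusters.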
